A study of Mus musculus with 24 samples.

Results

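Day 2 embryoid bodies in which the bromodomain protein BRD2 was targeted for degradation were compared with embryoid bodies of the same day that received no degradation signal. The comparison covers 6 RNA-seq libraries of the 24 in the series and the 22076 genes, of 35742 in the gene tables, whose mean over those 6 libraries was at least 1 normalized read count. A normalized read count is the number of reads of a gene divided by the size factor of its library, which puts libraries of different depth on one scale. The study followed V6.5 mouse embryonic stem cells carrying a BRD2 degron through stem cell culture and days 2, 3 and 4 of embryoid body formation. The stem cells grew with serum, LIF and the inhibitors CHIR99021 and PD0325901 (the 2i condition), and embryoid bodies formed in medium that lacked LIF. Both day 2 groups carried the degron and both received 1 µg/ml doxycycline for 18 hours first. The 3 IAA libraries then received 500 µM indole-3-acetic acid (IAA, an auxin that triggers the degron) for 24 hours, and the 3 Dox libraries did not. The labels call the Dox group untreated, do not say on which hour of embryoid body culture IAA was added, name 1 parental line only, and do not say whether the replicates were separate cultures. Differences are tested here against the scatter of these libraries alone, so every p-value may reflect technical spread only, and no library lacks doxycycline or the degron.

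BRD2 is a member of the BET family, whose paired bromodomains bind acetylated histones and which helps to bring transcription and chromatin factors to active genes. Embryoid bodies are aggregates in which stem cells leave the naive state, pass through a formative epiblast-like state and then start to take up germ layer fates. The second day without LIF is the time at which naive genes have mostly been shut down and epiblast genes are high.

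The labelled stage was checked against marker genes. The summed normalized count of 8 epiblast markers was 48990 to 49800 in the 3 Dox libraries. Its mean was 28880 in the Dox stem cells and 49390 in the Dox day 3 embryoid bodies. The difference from stem cells was mostly Dnmt3b, with a Dox mean of 1047 in stem cells and 21010 at day 2. Utf1 was also higher at day 2 (4579 against 1383), while Sox2 (1536 against 6015) and Pou5f1 (9083 against 9707) were lower. The sum of 7 naive stem cell markers was 1830 to 1984 at day 2, against 39300 in the stem cells. Other lineages were low: the sums were 232.5 to 247.6 for 11 endoderm markers, with Ttr at 0 and 6 of the 11 under 10, and 38.8 to 68.1 for 7 mesoderm markers, the highest of which, T, averaged 12.7 with Dox. The 10 feeder fibroblast markers summed to 491.6 to 554.8 with Dox and 347.3 to 369.9 with IAA; most of the sum was Fbn1 (a mean of 321.6 with Dox), and 5 of the 10 were under 10. The 8 blood and endothelial markers summed to 729.9 to 970.1 with Dox and 512.1 to 569.2 with IAA, mostly from Pecam1 (511.8 with Dox) and Tek (270.6), and 4 of the 8 were under 10. The part of these other cells in the results was not tested.

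Depth ranged from 11005217 reads in Dox 2 to 15732767 in IAA 3. The library Dox 3 stood apart from Dox 1 and Dox 2. The chi-square per degree of freedom was taken over genes whose reads, summed over the pair of libraries, reached a set minimum. It was 1.29 between Dox 1 and Dox 2, 4.49 between Dox 1 and Dox 3 and 3.77 between Dox 2 and Dox 3. The 3 IAA pairs gave 2.02 to 2.11. Of 11037 genes with a mean of at least 50 in the Dox group, 250 differed in Dox 3 by 0.5 or more on the log2 scale from the mean of the other 2 libraries. The same count was 85 for Dox 1, 48 for Dox 2 and 59 to 73 for the IAA libraries. Mitochondrial genes took 0.959% to 1.03% of reads with IAA and 0.831% to 0.892% with Dox, and the groups did not overlap in this share.

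Brd2 RNA measured 7550, 7595 and 7084 with Dox and 12280, 11150 and 11460 with IAA, so it was higher in every IAA library, with a log2 fold change of 0.65 (SE 0.044, adjusted p = 7.85e-10). Loss of the protein is not measured by RNA. Of its relatives, Brd3 (a log2 fold change of 0.12, adjusted p = 0.109) and the testis form Brdt (-0.38, adjusted p = 0.0534) did not pass the test with all 6 libraries. Without Dox 3, Brd3 (0.14, adjusted p = 0.0261) and Brdt (-0.44, adjusted p = 0.0242) passed. With all libraries, Brd3 passed with TMM scaling (adjusted p = 0.0462) and in edgeR's quasi-likelihood test (0.0328).

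Across all 22076 genes, limma's moderated test with Benjamini-Hochberg adjustment called 6638 genes at an adjusted p below 0.05, which is 30.1% of those tested. Of these, 2954 were higher with IAA (13.4% of tested genes) and 3684 lower (16.7%). Changes of at least 2-fold were far more often falls: 205 genes rose (0.929%) and 1137 fell (5.15%) by that much. In 9246 genes (41.9%) no Dox library overlapped any IAA library. Among the 10952 genes with a mean of at least 50, which is where most members of the lists below lie, 23.9% were called up and 20.9% called down, and these shares serve as the background for lists of highly expressed genes. RNA of whole embryoid bodies cannot tell fewer cells of a type from less RNA per cell, here or in any result that follows. Fold changes are log2 ratios of IAA over Dox on values to which 1 was added, which understates changes of weakly expressed genes.

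Leaving out Dox 3 raised the number of calls to 7248, with 15.2% of tested genes called up and 17.7% called down. The 2 call sets shared 6105 genes with the same direction, which is 92.0% of the calls with all 6 libraries and 84.2% of the calls without Dox 3, and 0 genes were called in opposite directions. Lists of genes with a common role were then read by counts of called members, and the plot of list shares shows them side by side. A count near the background shares is not read as a result about its list.

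**Figure D1:**
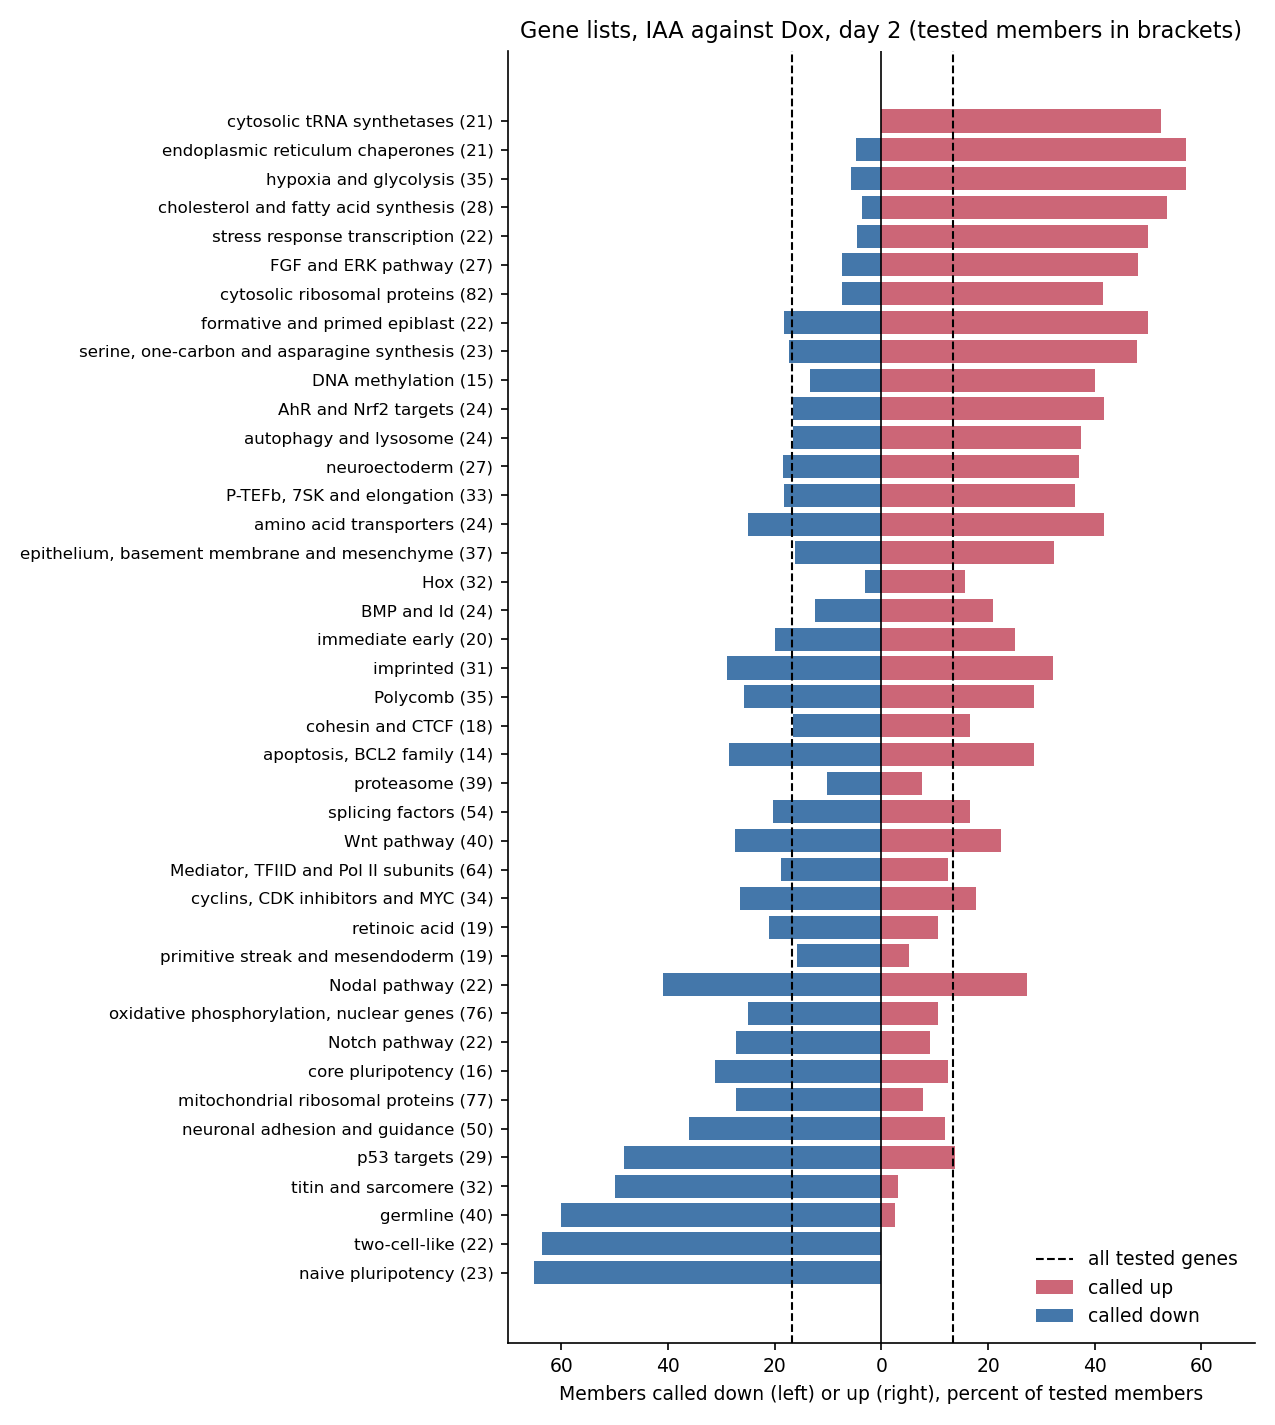
Share of the tested members of each gene list called lower (left, blue) or higher (right, red) with IAA at day 2, in percent, with the number of tested members in brackets and dashed lines at the shares over all 22076 tested genes (16.7% lower, 13.4% higher). No line marks the shares among genes with a mean of at least 50 (20.9% lower, 23.9% higher), the background for lists of highly expressed genes. Naive pluripotency, two-cell-like, germline and sarcomere lists lie at the bottom with mostly falls, and tRNA synthetases, chaperones, glycolysis and sterol synthesis lie at the top with mostly rises.

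Atf5, a bZIP transcription factor of the stress response (chromosome 7, 44812256 to 44816658 in GRCm38), measured 776, 799 and 780.1 with Dox and 3479, 3301 and 3470 with IAA, which gave a log2 fold change of 2.12 (SE 0.047, adjusted p = 1.25e-17), and the groups were far from overlapping. Tcf15, a basic helix-loop-helix factor of the formative epiblast, followed with 162, 170.1 and 212 with Dox and 629.6, 617 and 649.6 with IAA and a log2 fold change of 1.81 (SE 0.086, adjusted p = 7.92e-12). Gbx2 (a homeobox factor of the anterior hindbrain and of stem cells) rose by 1.59 on the log2 scale and P4ha1, a collagen prolyl hydroxylase subunit, by 1.53. Cdk5r2 (1.39), Pax6 (1.37), Naglu (1.31), Btbd17 (1.27), Olfml2a (1.23), Chac1 (1.22), Sned1 (1.19) and Tubb3 (1.19) complete the 12 largest rises among genes without overlap whose higher group averaged 50 or more. Pax6 is a neural and eye transcription factor, Tubb3 a neuronal tubulin, and Cdk5r2 an activator of the neuronal kinase CDK5.

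The largest falls were deeper. Ttn, the giant sarcomere protein titin (chromosome 2, 76703980 to 76982547), measured 1161, 1013 and 969.6 with Dox and 116, 116 and 121 with IAA, with a log2 fold change of -3.15 (SE 0.076, adjusted p = 2.68e-17). Ccdc187 (76.3, 71.8 and 72.5 with Dox and 5.30, 7.22 and 8.62 with IAA; log2 fold change -3.23) had the lowest value of the 12 largest falls, at a much lower level than Ttn. The long noncoding RNA Neat1, which builds paraspeckles, measured 1886, 1746 and 1476 with Dox and 335, 338 and 449 with IAA, a log2 fold change of -2.19, and its lowest Dox library, Dox 3, was still far above the IAA libraries. Trim67 (-3.03), Vwa3b (-2.77), the neuronal adhesion gene Nrcam (-2.62), Egfl6 (-2.57), Ltb4r2 (-2.49), Eprn (-2.39), Hmcn2 (-2.33), the oocyte gene Ooep (-2.27) and the costimulatory ligand gene Cd80 (-2.26) complete the 12 largest falls. Each of these 24 genes was called in the same direction without Dox 3.

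**Figure D2:**
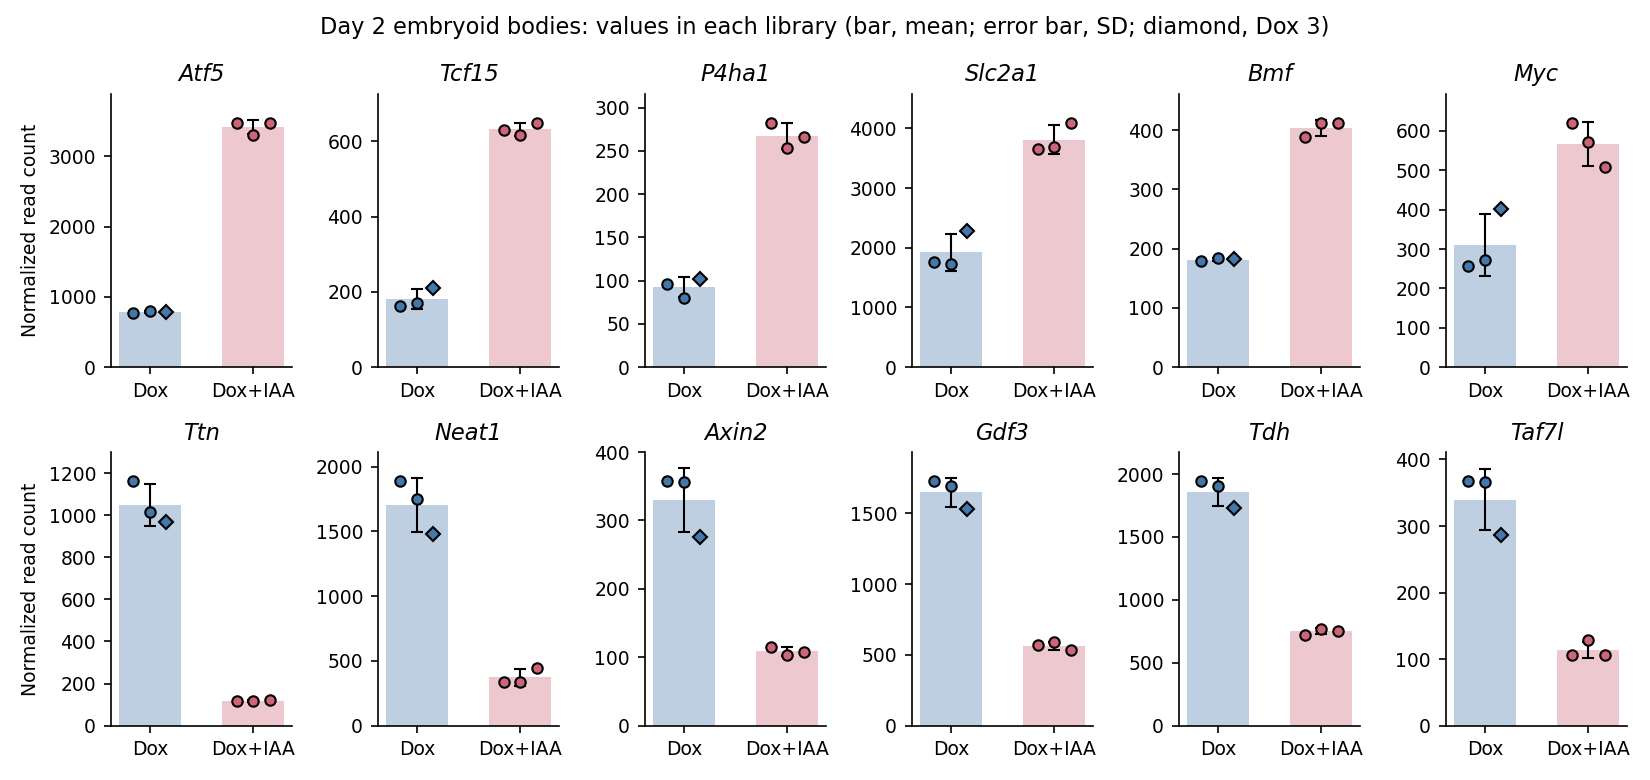
Normalized read counts of 12 genes in each day 2 library (points, with Dox 3 as a diamond), with bars for group means and error bars for the SD over 3 libraries; every axis starts at 0. The groups do not overlap in any panel, and Dox 3 is the Dox library nearest to the IAA libraries in every panel but Atf5 and Bmf.

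Naive pluripotency genes, which keep stem cells in the ground state, were called lower more often than all genes. Of 23 members tested, 0 were called up and 15 down, with a median log2 fold change of -0.48, against -0.04 over all tested genes. Without Dox 3 the count was 17 down. Nanog, a core factor of that state, measured 469.5, 532 and 575 with Dox and 252, 234 and 289.7 with IAA, and all IAA libraries lay below all Dox libraries (-1.02, adjusted p = 1.37e-08). Esrrb (-1.10), an orphan nuclear receptor, Dppa3 (-1.76), a maternal factor, Fbxo15 (-1.11) and the LIF effector Stat3 (-0.74) fell too. Tdh, the threonine dehydrogenase on which mouse stem cells depend, measured 1942, 1901 and 1732 with Dox and 722, 769.5 and 755 with IAA, a log2 fold change of -1.31 (SE 0.055, adjusted p = 1.01e-12). Zfp42 (-0.10, adjusted p = 0.232), a classical naive marker also called Rex1, did not pass.

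Some naive genes turned on the library Dox 3. Tbx3, a T-box factor of the naive state, measured 190.3, 165 and 54.5 with Dox and 101, 73.1 and 87.5 with IAA: Dox 3 lay below every IAA library while Dox 1 and Dox 2 lay above them, and the log2 fold change went from -0.47 (adjusted p = 0.222) with all libraries to -1.03 (adjusted p = 3.58e-08) without Dox 3. Klf2 measured 705, 768 and 482 with Dox and 594, 425 and 470 with IAA, and Dox 3 lay inside the range of the IAA libraries. Its log2 fold change was -0.38 (adjusted p = 0.0259) with all libraries and -0.58 without Dox 3, and it did not pass without Dox 1, Dox 2, IAA 2 or IAA 3 (adjusted p = 0.119 to 0.191). Klf4 measured 52.0, 52.0 and 39.5 with Dox and 51.2, 22.6 and 23.9 with IAA (-0.63, adjusted p = 0.0548), and of the libraries left out in turn it passed without Dox 3 or without IAA 1. The core pluripotency list was mixed, with 2 of 16 up and 5 down, and 3 down without any one of Dox 1, Dox 2, IAA 2 or IAA 3. Sox2 rose (1481, 1507 and 1622 with Dox and 2499, 2427 and 2427 with IAA; 0.67), and Pou5f1, which encodes OCT4, measured 9323, 9411 and 8517 with Dox and 8869, 9119 and 8439 with IAA with -0.044 (adjusted p = 0.51).

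Formative and primed epiblast genes were more often called up than down. Of 22 members, 11 rose and 4 fell, and without Dox 3 the counts were 14 and 4. The median was 0.22. Dnmt3b, a de novo DNA methyltransferase and one of the most strongly expressed genes of the epiblast, measured 20680, 21070 and 21290 with Dox and 28670, 27020 and 28670 with IAA, with no overlap and 0.42 on the log2 scale (adjusted p = 4.29e-08). Fgf5, a marker of the primed epiblast, rose by 0.74, Pou3f1 by 0.47, Cldn6 by 0.68, Sox4 by 0.63 and Zic2 by 0.45. Otx2, a factor that directs exit from the naive state, measured 622, 583 and 847 with Dox and 737, 771 and 748 with IAA: Dox 3 was above every IAA library, and its log2 fold change was 0.16 (adjusted p = 0.217) with all libraries and 0.32 (adjusted p = 3.64e-05) without Dox 3. Sema6a, a guidance ligand in the same list, fell with 993, 916 and 1054 with Dox and 502, 472 and 463 with IAA (-1.04), as did the ephrin receptor gene Epha2 (-0.59). Of 15 DNA methylation genes, 6 rose and 2 fell. Dnmt3a rose by 0.36, the demethylation glycosylase gene Mbd4 by 0.57, and the imprint guardian Zfp57 fell by 0.53 on the log2 scale. Tet1 (-0.086), Tet2 (-0.0082) and Tet3 (0.13), the 5-methylcytosine oxidases, did not pass (adjusted p = 0.174, 0.948 and 0.147).

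The Nodal pathway, in which secreted NODAL signals through activin receptors and the co-receptor TDGF1 and is restrained by LEFTY proteins, had 6 of 22 members up and 9 down. Of the ligands, Gdf3 measured 1726, 1690 and 1531 with Dox and 568, 592 and 532 with IAA, a log2 fold change of -1.55 (SE 0.059, adjusted p = 2.28e-13). Nodal itself measured 1447, 1485 and 1203 with Dox and 753, 760.5 and 768 with IAA, with Dox 3 the lowest Dox library but above every IAA library (-0.85). Tdgf1 (-0.46), Lefty1 (-0.71) and Lefty2 (-1.05), which are also targets of the pathway, fell as well. The shared signal transducer Smad4 (0.37), the repressors Skil (0.27) and Tgif1 (0.31) and the inhibitor Smad7 (0.29) rose. Foxh1, the DNA-binding partner of SMAD proteins, gave -0.038 (adjusted p = 0.618).

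Wnt ligands bind Frizzled receptors and LRP6 and stabilise beta-catenin, and feedback targets such as Axin2 report that signal. Of 40 Wnt genes, 9 rose (22.5%) and 11 fell (27.5%), beside 23.9% and 20.9% of all genes with a mean of at least 50. Among targets of the pathway that fell, Axin2 measured 357, 356 and 276 with Dox and 116, 103 and 107 with IAA (-1.58, adjusted p = 3.89e-10), Sp5 measured 21.8, 35.0 and 18.7 with Dox and 2.65, 4.51 and 1.99 with IAA (-2.69), and Lef1 fell by 0.75 on the log2 scale. Of the ligand genes, Wnt3 (-1.34), Wnt8a (-1.06) and Wnt5b, at 52.8, 53.9 and 52.4 with Dox and 11.5, 11.7 and 10.6 with IAA (-2.14), fell, while Wnt9a, which is outside the list, rose (0.82, adjusted p = 0.00533). Among receptors and effectors, Fzd3 (0.64), Fzd8 (0.58) and Ctnnb1, which encodes beta-catenin (0.26), rose, while the receptor gene Fzd10 fell (-0.95). The secreted inhibitor Sfrp1 rose with 317, 328 and 321 with Dox and 599.5, 546 and 591 with IAA (0.84). Porcn, which acylates Wnt ligands, measured 114, 99.2 and 87.6 with Dox and 122, 116 and 107 with IAA, with overlapping groups (0.20, adjusted p = 0.22).

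FGF signalling through ERK induces its own inhibitors, the Sprouty, Spred and DUSP genes. In this list 13 of 27 members rose and 2 fell, and the counts were the same without Dox 3, while 0 fell without Dox 1 and 1 without Dox 2, IAA 2 or IAA 3. Spry4 measured 198, 214 and 476 with Dox and 573, 558 and 634 with IAA, where Dox 3 was over 2 times the other Dox libraries and still below every IAA library; its log2 fold change was 1.10 with all libraries and 1.51 without Dox 3, and DESeq2 gave an adjusted p of 0.0505. Fgf4, the main FGF ligand of the early embryo, rose by 0.47, Spry1 by 0.42, Dusp4 by 0.49 and the receptor gene Fgfr1 by 0.26. Etv5 fell by 0.15 (adjusted p = 0.0232). Etv4 (0.095, adjusted p = 0.344) and Fgf8 (-0.40, adjusted p = 0.407) did not pass. Dusp6 measured 894, 1049 and 1847 with Dox and 1373, 1404 and 1462 with IAA, so that Dox 3 was above and the other Dox libraries below all IAA libraries, and the log2 fold change was 0.23 (adjusted p = 0.259) with all libraries and 0.54 (adjusted p = 6.95e-10) without Dox 3. Of 20 immediate early genes, 5 rose and 4 fell, and 2 fell without any one of the IAA libraries. Nr4a1 fell by 0.59 on the log2 scale and Klf10 rose by 0.49. Egr1 fell by 0.33 (adjusted p = 0.0311) but did not pass without Dox 3 (adjusted p = 0.199).

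Neuroectoderm genes had 10 of 27 members up and 5 down, with 3 down without Dox 1, with DESeq2 or in the joint fit of 24 libraries. Sox3 rose by 0.66, Nes, the neural progenitor filament, by 0.76, Sox11 by 0.48, Ina by 0.51 and Sox1, an early neural factor with 37.7, 34.0 and 55.3 with Dox and 105, 72.2 and 79.5 with IAA, by 1.01. The neuronal migration gene Dcx fell (23.5, 30.2 and 21.5 with Dox and 4.42, 4.51 and 3.31 with IAA; -2.35). The summed count of 6 neural progenitor markers was 868 to 957 with Dox and 1587 to 1651 with IAA. Primitive streak genes were near the floor of detection: 3 of 19 tested members had a mean of at least 50. Of the 19, 1 was called up and 3 down (2 and 4 without Dox 3, 0 up without Dox 2 or IAA 3, and 5 and 7 down with a pseudocount of 5 and with quality weights). T, the brachyury gene, measured 17.6, 10.4 and 10.1 with Dox and 3.53, 3.61 and 3.31 with IAA (-1.57, adjusted p = 0.00221, and 0.06 in the joint fit of 24 libraries) and Nkx1-2 31.9, 29.3 and 41.6 with Dox and 1.77, 1.80 and 3.98 with IAA (-3.37), both without overlap, while Eomes measured 75.5, 60.5 and 71.0 with Dox and 51.2, 52.3 and 57.7 with IAA and did not pass (adjusted p = 0.0737). Hox genes were also low, and 1 of 32 had a mean of at least 50. Of the 32, 5 were called up and 1 down, with 3 up without IAA 1 and 0 down without Dox 1, Dox 2 or IAA 3.

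In the Notch pathway, where ligands on one cell activate receptors on the next and induce Hes genes, 2 of 22 members rose and 6 fell, and 1 rose without any one of Dox 1, Dox 2, IAA 1 or IAA 3. The ligand gene Dll1 measured 1144, 1151 and 578 with Dox and 676, 626 and 574 with IAA: Dox 3 lay inside the range of the IAA libraries. Its log2 fold change was -0.55 (adjusted p = 0.0112) with all libraries and -0.88 without Dox 3, and it did not pass without Dox 1, Dox 2, IAA 2 or IAA 3 (adjusted p = 0.0551 to 0.104). The target Hes1 rose with 119, 155 and 131 with Dox and 251, 223 and 233 with IAA (0.81), and Notch3 (-0.33), Rbpj (-0.21) and Dtx1 (-0.47) fell. Of 24 BMP genes, 5 rose and 3 fell. Id1 (0.64) and Id2 (0.88), BMP-induced inhibitors of helix-loop-helix factors, rose, Smad6 rose (0.71), and Fst, which encodes the activin and BMP antagonist follistatin, fell from 327, 363 and 349.5 with Dox to 85.7, 83.0 and 103 with IAA, a log2 fold change of -1.93 (SE 0.097, adjusted p = 1.78e-11). Retinoic acid genes had 2 of 19 up and 4 down, with 3 up without Dox 3 and 2 down without Dox 2 or IAA 2, and the carrier gene Crabp2 rose with 162, 186 and 177 with Dox and 272, 272 and 287 with IAA (0.66).

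Stress response transcription factors and their targets form the group around Atf5. ATF4 and related bZIP factors raise amino acid synthesis, transport and tRNA charging when amino acids or protein folding fail, and they bind composite C/EBP-ATF elements. Of 22 members, 11 rose and 1 fell, and the counts were the same without Dox 3. Chac1, a glutathione-degrading enzyme, measured 161, 135 and 324 with Dox and 455, 446 and 442 with IAA, where Dox 3 was at least 2 times each other Dox library, and the log2 fold change went from 1.22 to 1.59 when Dox 3 was left out. Trib3, a pseudokinase that feeds back on ATF4, measured 175, 179 and 276 with Dox and 422, 345 and 412 with IAA (0.93). Gadd45a (0.89), Stc2 (0.71), Vldlr (1.00) and Ppp1r15a (0.40) rose, and Atf4 itself rose slightly (3823, 3795 and 3492 with Dox and 4395, 4199 and 4140 with IAA; 0.20). Atf3 (-0.12), Ddit3 (0.11), Ddit4 (-0.02) and Sesn2 (-0.0065) did not pass (adjusted p = 0.577, 0.624, 0.827 and 0.944), and Gdf15, a secreted stress marker, fell by 0.58 on the log2 scale but did not pass in the joint fit of 24 libraries (adjusted p = 0.115).

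The C/EBP-ATF core TGATGNAA, searched on both strands of 300 bases around the RefSeq start of each gene, was present in 311 of the 13075 tested genes with a window (2.38%). It was present in 5 of 21 stress genes with a window (23.8%), in 5 of 13 tRNA synthetase genes (38.5%) and in 3 of 18 serine and one-carbon genes (16.7%), whether or not they were called. Among all genes called up the share was 2.52% and among all called down 2.34%. Atf5 has no such match in its window. The 250 bases before the start of 4 genes that rose and hold a match are shown because they are known targets of this pathway. They were read from RefSeq promoter windows on GRCm38.p6, run 5′ to 3′ on the strand of the gene, and carry the match in capitals, which reads TTGCATCA where it lies on the opposite strand.
Chac1: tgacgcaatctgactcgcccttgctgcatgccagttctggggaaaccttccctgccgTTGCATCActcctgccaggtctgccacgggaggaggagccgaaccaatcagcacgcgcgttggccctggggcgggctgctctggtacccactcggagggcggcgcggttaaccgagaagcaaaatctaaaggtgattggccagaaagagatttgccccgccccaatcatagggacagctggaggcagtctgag
Asns: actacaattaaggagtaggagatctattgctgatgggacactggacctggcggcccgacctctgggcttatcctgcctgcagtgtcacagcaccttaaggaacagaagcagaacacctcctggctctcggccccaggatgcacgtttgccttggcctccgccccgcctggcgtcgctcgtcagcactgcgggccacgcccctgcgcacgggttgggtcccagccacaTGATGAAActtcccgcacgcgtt
Pycr1: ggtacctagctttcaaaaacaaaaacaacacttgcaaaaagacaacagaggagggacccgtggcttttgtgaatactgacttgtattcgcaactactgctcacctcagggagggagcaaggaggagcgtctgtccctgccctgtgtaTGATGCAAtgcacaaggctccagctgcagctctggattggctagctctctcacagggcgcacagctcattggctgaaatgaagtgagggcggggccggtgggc
Herpud1: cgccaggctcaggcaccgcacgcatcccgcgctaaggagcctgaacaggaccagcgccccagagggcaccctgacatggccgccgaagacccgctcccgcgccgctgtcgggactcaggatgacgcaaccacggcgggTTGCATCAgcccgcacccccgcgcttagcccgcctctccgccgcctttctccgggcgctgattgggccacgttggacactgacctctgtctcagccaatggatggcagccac
The windows are chr2:119350992-119351241 on the plus strand for Chac1, chr6:7693210-7693459 on the minus strand for Asns, chr11:120643749-120643998 on the minus strand for Pycr1 and chr8:94386179-94386428 on the plus strand for Herpud1. The match begins 193 bases before the start in Chac1, 23 in Asns, 103 in Pycr1 and 112 in Herpud1. A match is a description of these letters and no evidence of binding.

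Serine, one-carbon and asparagine synthesis had 11 of 23 members up and 4 down. Asns, the asparagine synthetase, measured 1494, 1514 and 1632 with Dox and 2595, 2502 and 2618 with IAA (0.73), and Pycr1, which makes proline, measured 409, 395 and 409.8 with Dox and 655, 608 and 712 with IAA (0.70). Psat1 (0.60), Phgdh (0.56), Psph (0.43) and Mthfd2 (0.47) rose, and Aldh18a1, which starts proline synthesis, rose by 0.65. Among the falls were Tdh, the folate enzyme Aldh1l1 (-1.35) and Cth, which makes cysteine (-0.42). Of 24 amino acid transporters, 10 rose and 6 fell. Slc7a3, a transporter of cationic amino acids, measured 3192, 3141 and 3071 with Dox and 4498, 4624 and 4504 with IAA (0.53), and Slc38a3 (0.85), Slc6a9 (0.78) and Slc43a2 (0.56) rose, while Slc38a4 (-0.50) fell. The cystine transporter gene Slc7a11 gave 0.078 (adjusted p = 0.733).

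Cytosolic tRNA synthetases, which charge tRNAs with amino acids, had 11 of 21 members up and 0 down, with changes that were small and narrow in spread. Nars measured 3257, 3205 and 3230 with Dox and 4223, 4373 and 4443 with IAA (0.43) and Aars 7125, 6805 and 6989 with Dox and 9057, 9173 and 9039 with IAA (0.38), both without overlap, and the largest value of the list was 0.43. Without Dox 3 the counts were 11 up and 1 down. Chaperones and quality control factors of the endoplasmic reticulum had 12 of 21 up and 1 down, and 0 down without any one of Dox 1, Dox 2, IAA 1 or IAA 2. Hspa5, the main luminal chaperone BiP, measured 4537, 4825 and 4750 with Dox and 5890, 5953 and 5809 with IAA (0.32). Hsp90b1 rose by 0.31, Syvn1 by 0.50, Pdia4 by 0.27 and Herpud1 by 0.67.

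Glycolysis and hypoxia-linked genes had 20 of 35 members up and 2 down (1 down without Dox 3 or any IAA library), and a median of 0.23. Slc2a1, the glucose transporter GLUT1, measured 1767, 1731 and 2279 with Dox and 3648, 3692 and 4095 with IAA (0.99, adjusted p = 2.95e-09). Along the glycolytic pathway, Hk2 rose by 0.36, Gpi1 by 0.66, Pfkl by 0.80, Aldoa by 0.61, Tpi1 by 0.56, Pgk1 by 0.65 and Ldha by 0.18; Ldha did not pass in the joint fit of 24 libraries (adjusted p = 0.194). Pgk1 measured 4103, 4219 and 4368 with Dox and 6488, 6657 and 6749 with IAA and Gpi1 6283, 6157 and 6020 with Dox and 9486, 9691 and 9904 with IAA, and neither overlapped. Bnip3, a mitophagy receptor that hypoxia induces, measured 259, 261 and 263 with Dox and 469.7, 504 and 489 with IAA (0.90), and Vegfa, the vascular growth factor, 116, 111 and 146 with Dox and 248, 234 and 279 with IAA (1.03). Of the collagen hydroxylases, P4ha1 rose to 282, 254 and 266 from 95.6, 79.4 and 102, while its paralogue P4ha2, chosen after its values were seen, fell from 456, 500 and 490.2 to 279, 257 and 276 (-0.83). Pdk1, which keeps pyruvate out of mitochondria, gave 0.12 (adjusted p = 0.154). Egln1, Egln3, Aldoc and the weakly expressed Car9 and Adm, all of this list, did not pass either (adjusted p = 0.487 to 0.933). Eno2 fell by 0.50 (adjusted p = 0.0368) but did not pass without Dox 3 (adjusted p = 0.197).

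Cholesterol and fatty acid synthesis had 15 of 28 members up and 1 down, and 19 up without Dox 3. The number up was 9 with a filter on the mean over 24 libraries, 9 without Dox 1, 7 without Dox 2 and 7 without IAA 3. Msmo1 measured 314, 308 and 374 with Dox and 458, 455 and 492 with IAA (0.50), Elovl6 1930, 1906 and 1951 with Dox and 2636, 2539 and 2548 with IAA (0.42) and Insig1, which retains the SREBP escort protein in the endoplasmic reticulum when sterols are high, 470.4, 492 and 409 with Dox and 592, 583 and 652 with IAA (0.42). Dhcr7 (0.44), Mvd (0.37) and Cyp51 (0.34) rose.

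Targets of NRF2 and of the aryl hydrocarbon receptor, which answer oxidants and xenobiotics, had 10 of 24 up and 4 down. Gclc, which limits glutathione synthesis, measured 3589, 3636 and 3003 with Dox and 5566, 5737 and 5569 with IAA (0.73), Srxn1, a sulfiredoxin, 537, 457 and 436 with Dox and 801, 858 and 836 with IAA (0.81) and Gstp1 937, 949.9 and 923 with Dox and 1520, 1485 and 1526 with IAA (0.69). Nqo1 rose by 0.66. Hmox1, heme oxygenase, measured 11130, 11320 and 7511 with Dox and 13900, 13790 and 11230 with IAA, where Dox 3 was far below the other Dox libraries, and its value was 0.40 with all libraries and 0.20 without Dox 3. It lost its call without IAA 1 or IAA 2 (adjusted p = 0.0578 and 0.0589). The receptor gene Ahr fell (-0.45), and Cyp1a1 and Cyp1b1, its best known targets, measured at most 15.1 and 28.9 in any library and did not pass. The antioxidant element core TGACNNNGC was present in 5 of 19 windows of this list (26.3%) and in 14.3% of all windows.

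Targets of p53, the stress-activated tumour suppressor, had 4 of 29 members up and 14 down. Zmat3, an RNA-binding target, measured 3075, 3010 and 2643 with Dox and 1724, 1560 and 1549 with IAA (-0.85). Cdkn1a, the cell cycle inhibitor p21, measured 3799, 3649 and 2815 with Dox and 2333, 2302 and 2193 with IAA: Dox 3 was the lowest Dox library but above every IAA library (-0.58). Eda2r (-0.61), Phlda3 (-0.49), Ckap2 (-0.51) and the p53 ligase gene Mdm2 (-0.35) fell, and Ccng1 fell slightly (-0.16). Rrm2b (0.40), Ddb2 (0.33), Xpc (0.30) and Pml (0.24) rose. Trp53inp1 (-0.067, adjusted p = 0.421) did not pass with all libraries but fell without Dox 3 (-0.15, adjusted p = 0.00208). Trp53 itself gave 0.11 (adjusted p = 0.0755) and passed with TMM scaling (0.0179), edgeR (0.0157) and DESeq2 (0.0384). Dox 3 was lower than Dox 1 and Dox 2 in this list by a median of 0.10 on the log2 scale, and without it 16 members fell, against 9 in the joint fit of 24 libraries.

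The BCL2 family, which sets the threshold of apoptosis, had 4 of 14 up and 4 down. The BH3-only killers Bmf and Bcl2l11 rose, with 179, 183 and 183 with Dox and 388, 411 and 412 with IAA for Bmf (1.15) and 276, 321 and 367 with Dox and 540.4, 544 and 563 with IAA for Bcl2l11, which encodes BIM (0.78). The protector Mcl1 rose (0.36), the protector Bcl2l1 fell (-0.43), and the executioners Bax (-0.46), Bak1 (-0.33) and Bok (-0.39) fell. Bbc3, a p53 target called PUMA, measured 1307, 1254 and 888 with Dox and 974, 957 and 947 with IAA and was chosen after its values were seen. Its log2 fold change was -0.24 (adjusted p = 0.0557) with all libraries and -0.42 (adjusted p = 3.21e-08) without Dox 3.

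Among cell cycle genes, 6 of 34 rose (17.65%) and 9 fell (26.5%), beside 23.9% and 20.9% of all genes with a mean of at least 50. Myc measured 257, 272 and 402 with Dox and 621, 573 and 508 with IAA (0.89) and Mycn, its counterpart in the epiblast, 2435, 2449 and 3011 with Dox and 2125, 2007 and 2046 with IAA (-0.35), so Myc rose and Mycn fell, both without overlap. E2f1 rose by 0.55 and Cdkn1b, the inhibitor p27, by 0.54, while Ccne1 (-0.33), the retinoblastoma gene Rb1 (-0.53) and its relative Rbl2 (-0.77) fell.

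Germline genes, which are normally silent outside germ cells and which the PRC1.6 complex of MGA, E2F6, PCGF6 and L3MBTL2 represses through E-boxes and E2F sites, had 1 of 40 members up and 24 down, with a median of -0.50, and 2 were up and 26 down without Dox 3. Taf7l, a germ cell TFIID subunit, measured 367, 366 and 286 with Dox and 107, 128 and 107 with IAA (-1.56). Hormad1 measured 235, 232 and 148 with Dox and 80.3, 84.8 and 80.9 with IAA (-1.28), Tdrd12 822, 816 and 726 with Dox and 313, 382 and 376 with IAA (-1.15) and Tex14 234, 224 and 189.5 with Dox and 89.2, 83.0 and 82.9 with IAA (-1.33), and the groups did not overlap in any of them. Zcwpw1 (-0.93), Tex15 (-0.88), Sycp2 (-1.32), Fkbp6 (-0.84) and Stk31 (-0.70) fell, and Dazl (-0.31, adjusted p = 0.0536) and Sycp3 (-0.13, adjusted p = 0.285) did not pass. Of the repressing complex, L3mbtl2 (-0.40), Pcgf6 (-0.24) and E2f6 (-0.33) fell, and Mga fell slightly (-0.13, adjusted p = 0.0353). E2f6, Fkbp6 and Stk31 were chosen after their values were seen. In the wider Polycomb list 10 of 35 rose (28.6%) and 9 fell (25.7%), with 5 down without IAA 1. These shares lie near the 23.9% and 20.9% of all genes with a mean of at least 50. The PRC1 gene Cbx2 rose by 0.65 and the PRC2 gene Ezh2 by 0.29.

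The E-box CACGTG, which is the same on both strands, was present in 13 of 34 germline windows (38.2%), in 10 of the 21 windows of germline genes called down (47.6%) and in 1267 of all 13075 windows (9.69%). Over all genes the share was 9.52% in those called down and 11.2% in those called up. The 250 bases before the start of 4 germline genes that fell and hold an E-box are shown, with the E-boxes in capitals, because the motif was more frequent in the windows of this list than in all windows.
Taf7l: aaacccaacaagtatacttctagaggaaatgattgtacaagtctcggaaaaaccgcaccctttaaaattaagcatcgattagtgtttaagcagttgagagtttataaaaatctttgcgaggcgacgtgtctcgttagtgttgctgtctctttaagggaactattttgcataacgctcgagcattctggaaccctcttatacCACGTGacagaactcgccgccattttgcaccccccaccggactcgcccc
Hormad1: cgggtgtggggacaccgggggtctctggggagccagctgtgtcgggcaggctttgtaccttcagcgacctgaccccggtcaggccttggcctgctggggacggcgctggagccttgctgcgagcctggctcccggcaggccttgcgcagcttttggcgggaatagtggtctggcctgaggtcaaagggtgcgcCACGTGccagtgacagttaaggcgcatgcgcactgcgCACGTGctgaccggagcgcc
Fkbp6: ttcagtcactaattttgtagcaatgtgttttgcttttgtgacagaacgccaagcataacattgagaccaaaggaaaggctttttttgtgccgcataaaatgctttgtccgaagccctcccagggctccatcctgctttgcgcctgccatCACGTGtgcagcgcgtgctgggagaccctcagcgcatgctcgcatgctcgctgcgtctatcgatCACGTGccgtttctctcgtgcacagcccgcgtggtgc
Stk31: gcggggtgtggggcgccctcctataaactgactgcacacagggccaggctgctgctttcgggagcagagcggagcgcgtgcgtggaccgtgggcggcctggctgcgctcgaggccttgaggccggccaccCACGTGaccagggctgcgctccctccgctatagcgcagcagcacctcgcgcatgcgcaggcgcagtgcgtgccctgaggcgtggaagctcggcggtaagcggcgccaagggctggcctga
These RefSeq windows on GRCm38.p6 are chrX:134476491-134476740 on the minus strand for Taf7l, chr3:95559427-95559676 on the plus strand for Hormad1, chr5:135350045-135350294 on the minus strand for Fkbp6 and chr6:49395354-49395603 on the plus strand for Stk31. The E-box begins 49 bases before the start in Taf7l, 57 and 20 in Hormad1, 101 and 37 in Fkbp6 and 120 in Stk31.

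Genes of the two-cell-like state, a rare state of stem cells with an early embryo programme, fell too, with 0 of 22 up and 14 down, with 11 down without Dox 3, 8 down without IAA 3 and 5 down in the joint fit of 24 libraries. Zscan4a measured 149, 162 and 179 with Dox and 96.2, 79.4 and 69.6 with IAA (-0.999) and Tcstv3 34.4, 43.5 and 40.2 with Dox and 15.9, 16.2 and 15.2 with IAA (-1.26). Members of the Zscan4 and Usp17l families are near-identical copies, so counts of single members are uncertain. The summed count of 6 markers of this state was 441.9 to 492.4 with Dox and 212.8 to 285.2 with IAA, without overlap.

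Imprinted genes, which are read from 1 parental allele, moved in both directions, with 10 of 31 up and 9 down. Meg3, a maternal noncoding RNA, measured 17470, 17320 and 15760 with Dox and 21350, 21190 and 22180 with IAA (0.36), and Mirg, a noncoding RNA of the same Dlk1-Dio3 cluster, 901, 828 and 777 with Dox and 1378, 1410 and 1505 with IAA (0.78). Nnat (0.83) and Plagl1 (0.82) rose. Sfmbt2, a Polycomb-related gene, measured 386, 367 and 359 with Dox and 176, 166 and 152 with IAA (-1.17) and Usp29 206, 217 and 146 with Dox and 74.2, 70.4 and 76.2 with IAA (-1.34), and both fell without overlap.

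Ttn belongs to a list of 32 tested genes of the sarcomere and of calcium handling in muscle. In that list, Ttn included, 1 rose and 16 fell, with a median of -0.68. Neb, the giant protein nebulin, measured 179, 179.6 and 168 with Dox and 85.7, 77.6 and 72.9 with IAA (-1.15). Des (-0.86), Ryr3 (-1.38) and Tpm1 (-0.48) fell. Neuronal adhesion and guidance genes, many of them very long, had 6 of 50 up and 18 down, with 3 up without Dox 1 or Dox 2 and 2 without IAA 3. Nrcam measured 116, 136 and 119 with Dox and 22.1, 18.9 and 17.2 with IAA, Nfasc 236, 224 and 239 with Dox and 124, 129 and 132 with IAA (-0.85) and Ntn1 103, 102 and 109 with Dox and 43.3, 52.3 and 45.7 with IAA (-1.14), and L1cam rose (0.73).

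Gene span was read over 13128 protein-coding genes with a mean of at least 10. In each of the bins below 80 kb, 19.05% to 21.4% of genes were called down. The share was 25.4% from 80 to 160 kb, 29.5% from 160 to 320 kb and 36.1% in the 288 genes of 320 kb or more, where 9.38% were called up. The median of those 288 genes was -0.18, and Spearman's rho between span and log2 fold change across all 13128 genes was -0.05. The longest genes were also expressed less, with a median normalized count of 77.1 against 158.2 to 381 in the bins below 80 kb, and rho between level and log2 fold change was 0.18 across the same genes. Genes are not independent replicates, and the part of the level in the shares was not tested.

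**Figure D3:**
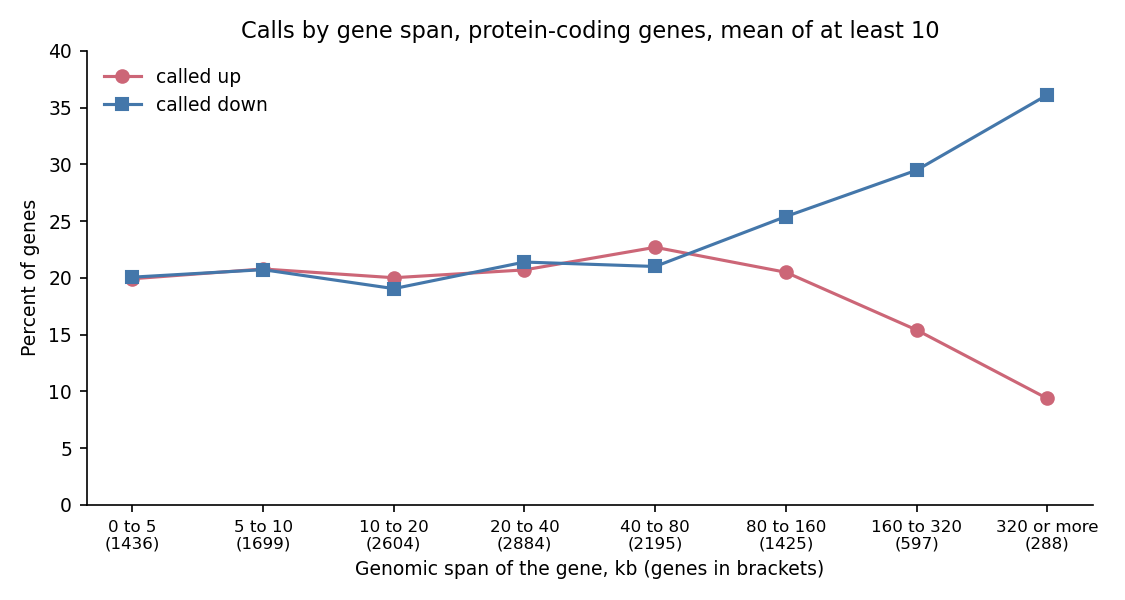
Percent of protein-coding genes called higher (red circles) or lower (blue squares) with IAA at day 2, by genomic span of the gene in kb, with the number of genes per bin in brackets. The share called lower is about level up to 80 kb and reaches 36.1% in the 288 longest genes, where 9.38% are called higher.

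In a list on epithelium, basement membrane and mesenchyme, 12 of 37 members rose and 6 fell. Epcam, an epithelial adhesion gene, measured 3133, 3137 and 3057 with Dox and 3987, 4168 and 4126 with IAA (0.40), Krt8 165, 157 and 194 with Dox and 264, 297 and 266 with IAA (0.68) and the intermediate filament gene Vim 922, 967 and 906 with Dox and 1355, 1444 and 1281 with IAA (0.54). Cdh1, which encodes E-cadherin, rose slightly (0.20), Col4a1 rose (0.58), and the laminin chain gene Lama5 fell (-0.51) while Lama1, chosen after its values were seen, rose (0.74). Fn1 gave -0.035 (adjusted p = 0.682).

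Of 82 cytosolic ribosomal protein genes, 34 rose and 6 fell (11 without Dox 3), with a median of 0.081, and the largest rise was of Rpl22l1 (508, 495 and 428 with Dox and 693, 747 and 838 with IAA; 0.67), a paralogue of Rpl22, which was chosen after its values were seen and fell (-0.27). Of 77 mitochondrial ribosomal protein genes, 6 rose (10 without Dox 3) and 21 fell; Mrpl48 (-0.66) and Mrpl54 (-0.68) fell most among the named ones. Nuclear genes of oxidative phosphorylation had 8 of 76 up (10.5%) and 19 down (25%), beside 23.9% and 20.9% of all genes with a mean of at least 50. In this list 26 were down without Dox 3 and 9 to 11 without Dox 1, Dox 2 or IAA 1. The number up was 5 without Dox 2, IAA 2 or IAA 3. Proteasome genes had 3 of 39 up (6 with TMM scaling or edgeR) and 4 down (7 without Dox 3), with Psmb10, an immunoproteasome subunit, at 902, 852 and 835 with Dox and 434, 502 and 511 with IAA (-0.84). Of 54 splicing factors, 9 rose and 11 fell, with 5 to 7 down without any one library other than Dox 3, while TMM scaling gave 13 up and 7 down and edgeR 16 up and 6 down. Hnrnpd, a regulator of RNA stability and splicing, measured 3413, 3230 and 3112 with Dox and 2193, 2141 and 2305 with IAA (-0.55). Mediator, TFIID and polymerase II subunits had 8 of 64 up and 12 down, with 5 down without Dox 2 and 7 without IAA 3, while TMM scaling gave 12 up and 7 down and edgeR 14 up and 7 down. Med16, a Mediator tail subunit, fell with 489, 438 and 439.9 with Dox and 282, 269.7 and 286 with IAA (-0.70), and Taf6l rose with 189, 180.5 and 226 with Dox and 335, 324 and 310.2 with IAA (0.71). Of the replication-dependent histone genes 3 were tested and 0 called.

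Genes of RNA polymerase II pausing and elongation had 12 of 33 members up and 6 down, with 15 and 8 without Dox 3. Hexim1, the inhibitor of the kinase P-TEFb and a standard readout of BET inhibition, measured 1404, 1343 and 1334 with Dox and 2227, 2237 and 2178 with IAA (0.70), while Larp7, which holds the 7SK RNA, fell with 2151, 2301 and 2420 with Dox and 1239, 1291 and 1239 with IAA (-0.86). Aff1, a scaffold of the super elongation complex, fell (-0.90) and Ell2, an elongation factor of that complex, rose (0.58). Cdk9 (0.096, adjusted p = 0.282) and Ccnt1 (-0.12, adjusted p = 0.139), the kinase and its cyclin, did not pass with all libraries. Of 18 cohesin and CTCF genes, 3 rose and 3 fell, and Ctcf gave -0.021 (adjusted p = 0.764). Autophagy and lysosome genes had 9 of 24 up and 4 down (2 down without Dox 1, Dox 2 or IAA 2), with Map1lc3b at 1667, 1722 and 1524 with Dox and 2239, 2299 and 2272 with IAA (0.47) and Tfeb, their transcription factor, at 38.6, 40.6 and 45.2 with Dox and 10.6, 13.5 and 17.2 with IAA (-1.54).

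The library Dox 3 was examined gene by gene. Of the 250 genes in which it deviated by 0.5 or more on the log2 scale, 139 were higher and 111 lower than in Dox 1 and Dox 2. With all 6 libraries 101 of the 250 were called, and without Dox 3 159 were. The deviation was computed from the same Dox libraries as the fold change, so these counts describe the dependence and test nothing. Dgke, a diacylglycerol kinase, measured 563, 528 and 219.6 with Dox and 289, 276 and 244 with IAA, with Dox 3 below every IAA library. Its log2 fold change was -0.58 (adjusted p = 0.0383) with all libraries and -1.02 without Dox 3, and it did not pass without any other single library (adjusted p = 0.0858 to 0.251). Eid3 measured 136, 101 and 43.8 with Dox and 126, 117 and 107 with IAA, with Dox 3 far below the rest, and its log2 fold change was 0.46 with all libraries and -0.009 without Dox 3, neither of them called (adjusted p = 0.167 and 0.967), against 0.80 (adjusted p = 0.0114) without Dox 1. Rsph4a fell with 127, 128 and 49.5 with Dox and 25.6, 29.8 and 28.5 with IAA, -1.71 with all libraries and -2.16 without Dox 3, and Wnt9a, at 36.0, 39.7 and 83.2 with Dox and 91.0, 89.3 and 83.5 with IAA, had Dox 3 just below the IAA libraries.

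Olig2 (55.3, 69.9 and 129 with Dox and 104, 87.5 and 98.1 with IAA) and Zfp790 (70.4, 61.4 and 147 with Dox and 97.1, 90.2 and 95.5 with IAA) had Dox 3 above every IAA library and were called only without it. The means of the Dox day 3 embryoid bodies were 45.8 for Tbx3, 209 for Dgke, 389.9 for Spry4, 379 for Chac1 and 89.5 for Wnt9a, beside Dox 3 values of 54.5, 219.6, 476, 324 and 83.2. For Olig2 the day 3 mean was 65.9, beside 129 in Dox 3. Quality weights estimated per library by limma were 0.554 for Dox 3 and 0.924 to 1.35 for the other 5. What set Dox 3 apart was not tested.

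**Figure D4:**
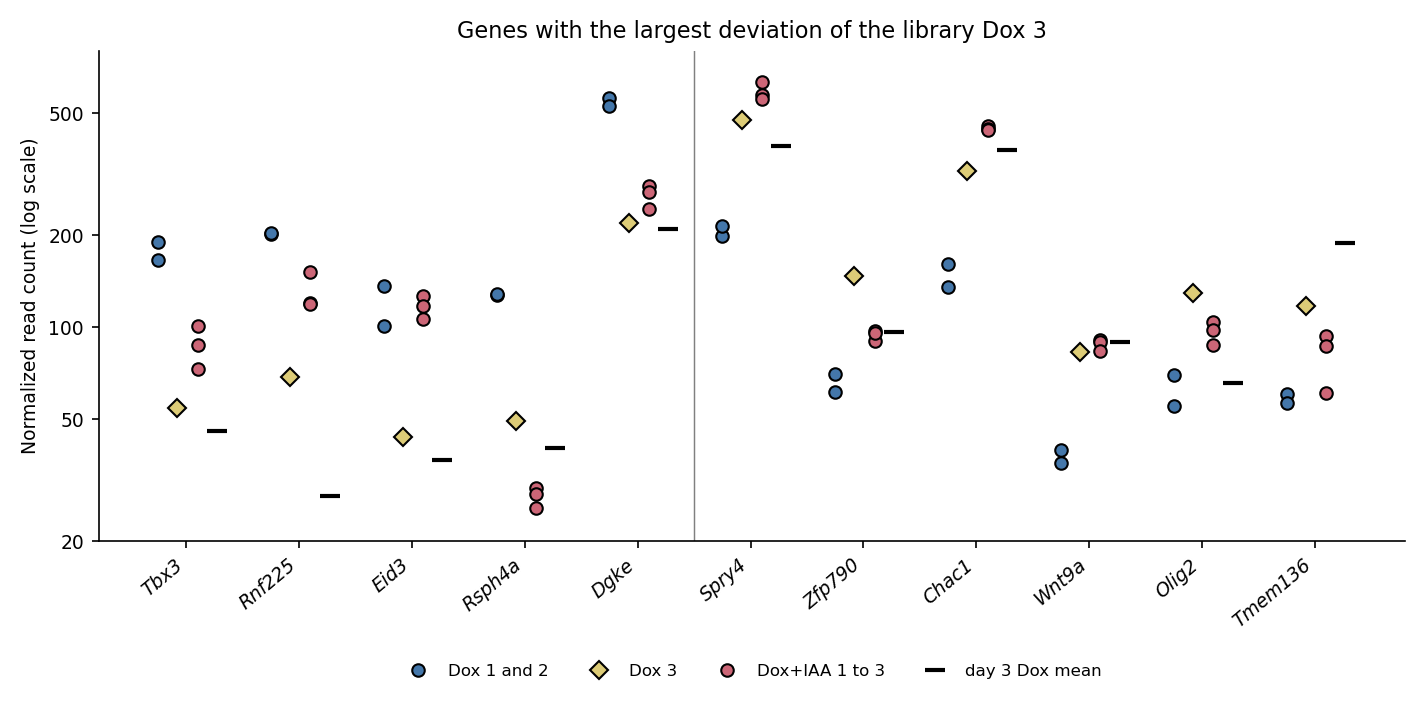
Normalized read counts on a log axis for 11 of the 12 genes in which Dox 3 (yellow diamond) deviates most from Dox 1 and 2 (blue), lower on the left of the grey line and higher on the right, with the 3 IAA libraries (red) and the mean of the day 3 Dox libraries (black bar). In Tbx3, Rnf225, Eid3 and Dgke the diamond lies below all IAA libraries, and in Zfp790, Olig2 and Tmem136 above them.

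The same contrast was made in stem cells and at day 3, where 17.3% and 4.22% of tested genes were called up and 20.1% and 6.32% called down. Of the 2954 rises at day 2, 1370 were also rises in stem cells (46.4% of the day 2 rises and 37.9% of the stem cell rises) and 637 also at day 3 (21.6% and 70.9%). Of the 3684 falls, 1553 were shared with stem cells (42.2% and 36.9%) and 786 with day 3 (21.3% and 58.4%). In stem cells 373 of the day 2 rises were falls and 270 of the falls were rises, while at day 3 these counts were 64 and 19. A fit of all 24 libraries tested the difference itself: the IAA effect was higher at day 2 than in stem cells for 9.73% of 22019 genes and lower for 6.61%, and against day 3 it was higher for 4.29% and lower for 2.92%. These stages share no control libraries.

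Several groups described above differed by stage in this test. Of 23 naive genes, 13 had a lower effect at day 2 than in stem cells and 8 a lower effect than at day 3. Of 28 sterol and fatty acid genes, 14 were higher than in stem cells and 21 higher than at day 3, and of 21 tRNA synthetases 11 were higher than in each. Nanog fell at day 2 while its log2 fold change in stem cells was 0.21, a difference of -1.23 (adjusted p = 4.46e-09). Dnmt3b gave -1.71 in stem cells against its rise at day 2, a difference of 2.13, Dnmt3a -1.13 and a difference of 1.49, and Bnip3 -0.82 and a difference of 1.72. Tcf15 gave -0.075 in stem cells and 0.51 at day 3, with differences of 1.88 and 1.29. Bmf gave -0.39 and 0.11, with differences of 1.54 and 1.04. The stress genes Atf3 (difference -1.47) and Ddit4 (-1.61) had a higher effect in stem cells. Against day 3, Atf5 had a higher effect at day 2 (1.34). Of the 22 stress genes, 1 had a higher and 4 a lower effect at day 2 than in stem cells. Against day 3, 7 were higher and 0 lower. The median log2 fold change of this list was 0.65 in stem cells, 0.25 at day 2 and 0.02 at day 3. For Axin2 the difference from day 3 was -1.61 and for Tdh -1.57.

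The gene with the largest difference from stem cells was Porcn, at -3.63 in stem cells and 0.20 at day 2 (difference 3.83), followed among the higher ones by Spry4 (3.43), Ramp3 (3.26), Enpp3 (3.23), Arhgef5 (3.23) and Arap3 (3.12). The lower ones were Fst (-2.99), Foxn4 (-2.58), Ccdc187 (-2.56), Tmem132d (-2.54), Ltb4r2 (-2.51) and Hmcn2 (-2.47). Foxn4, a forkhead factor of progenitor cells, measured 205, 259 and 261 with Dox and 58.3, 48.7 and 53.7 with IAA at day 2 (-2.15), against 0.43 in stem cells and 0.14 at day 3.

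**Figure D5:**
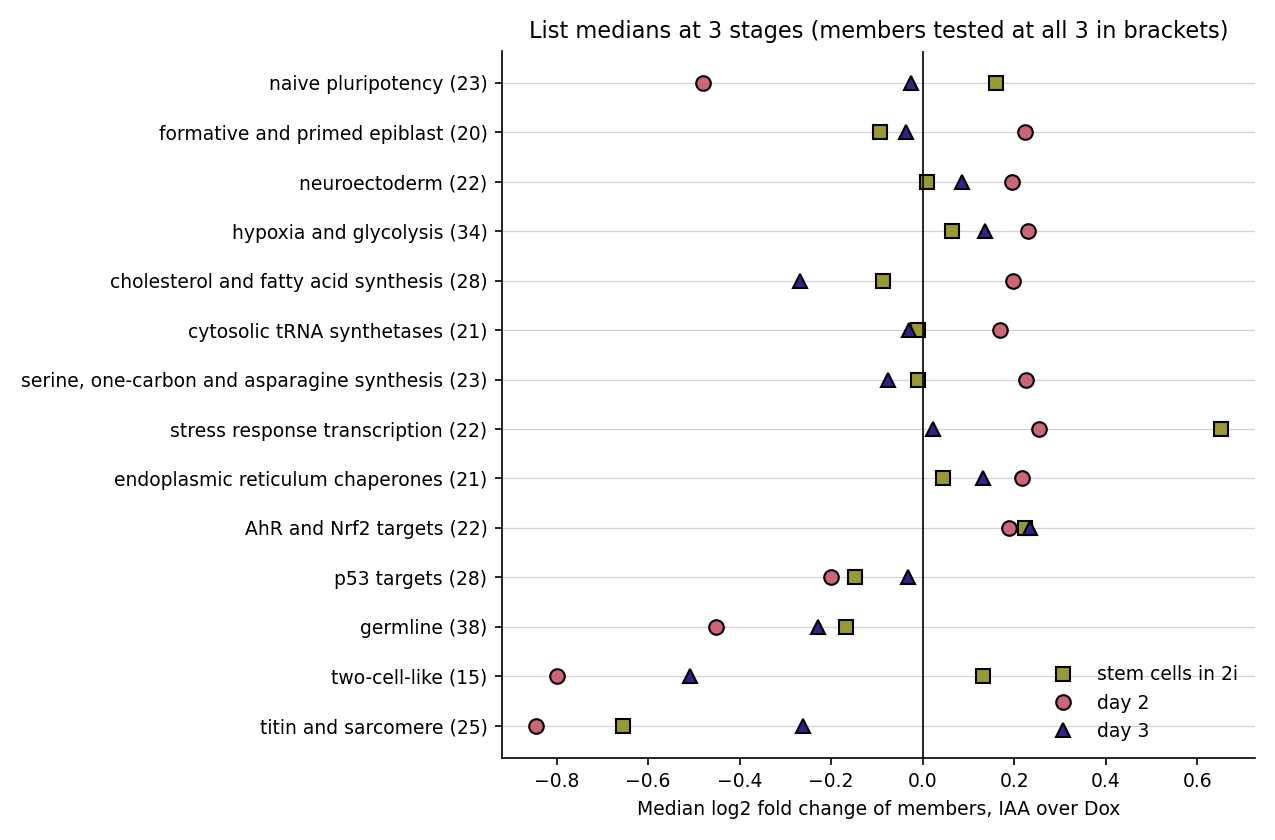
Median log2 fold change (IAA over Dox) of the members of 14 lists in stem cells (squares), day 2 (circles) and day 3 (triangles), over members tested at all 3 stages, whose number stands in brackets. Day 2 has the lowest median of the 3 for naive, germline, two-cell-like and sarcomere genes. It has the highest for sterol synthesis, tRNA synthetase and glycolysis genes. The stress response list has its highest median in stem cells (0.65, against 0.25 at day 2). Medians carry no test.

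The deposited comparison table of the study was set beside these calls. In the authors' deposited table, by their own thresholds, 125 genes are called up and 730 down at day 2. All 125 were called up here, and 726 of the 730 were called down.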

How the data were processed

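RNA-seq of total RNA extracted with TRIzol was read from 3 IAA and 3 Dox libraries of day 2 embryoid bodies. The submitters' processing notes list STAR 2.5.3a, featureCounts 1.5.2, DESeq2 and the genome build mm10. The signal values deposited by the authors are read counts divided by a size factor per library. Every value came back as a whole read within a tolerance of 1e-06, so depth was recovered (11005217 to 15732767 reads per library). The authors' deposited tables also hold their log2 fold changes, test statistics (a score) and p-values, which were used only for the count of their calls. The strand setting of the counting is not given in the sources used here, so overlapping and antisense genes are uncertain.

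Genes with a mean of at least 1 were tested with limma 3.58.1 (trend; R 4.3.3) on log2(value + 1), with Benjamini-Hochberg adjustment over all tested genes and a threshold of 0.05. All p-values printed are from this test unless another tool is named. Differences between stages came from 1 limma fit of all 24 libraries. Tested on simulated counts for this comparison with 22076 genes, the procedure recovered 79 of the 100 set to a 1.5-fold change and 98 of the 100 set to a 2-fold change. Alternatives were edgeR 4.0.16 and DESeq2 1.42.0 on the recovered reads, TMM scaling, other pseudocounts and filters, library quality weights, a replicate block and leaving out each library. The correlations of deviations from the group means were -0.033, 0.089 and 0.108 for same-numbered libraries and -0.126 to 0.0851 for the other combinations. Deviations from a mean of 3 libraries depend on each other, so these values cannot tell whether the libraries were paired.

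The genes named are the 12 largest changes each way (adjusted p below 0.05, a mean of at least 50 in the higher group, no overlap, no predicted or pseudogenes), key members of 43 lists with up to 5 others of smallest adjusted p, the 6 largest stage differences each way, and the 6 genes each way in which Dox 3 deviated most. Bbc3, P4ha2, Fkbp6, Stk31, E2f6, Cth, Lama1 and Rpl22 were added after their values were seen. So were Egln1, Egln3, Aldoc, Car9, Adm, Eno2, Rrm2b, Ddb2, Xpc and Pml. Values of a few genes so chosen are left out of the text. The comparison and the lists were chosen with earlier results of these data known. Of 39 tRNA synthetase symbols searched, which include newer names of the same genes, 21 were found.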

Additional observations from a re-analysis of the deposited data

Results flagged for a closer look

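The response to IAA differed between day 2 embryoid bodies and the other stages in the genes below, by a test of the difference itself in a limma fit of all 24 libraries (adjusted p below 0.05). Values are day 2 minus the other stage, in log2 fold change.

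Against stem cells the effect at day 2 was higher for Porcn (3.83), Spry4 (3.43), Ramp3 (3.26), Enpp3 (3.23), Arhgef5 (3.23) and Arap3 (3.12). In Porcn, Arhgef5 and Arap3 the day 2 values themselves did not pass, and the difference came from stem cell values of -3.63, -3.23 and -3.19. Among genes of the lists, it was higher for Pax6 (2.52), Dnmt3b (2.13), Lefty1 (1.92), Tcf15 (1.88), Bnip3 (1.72), Gbx2 (1.61), Bmf (1.54) and Dnmt3a (1.49). Lefty1 fell at day 2 (-0.71) and had a lower value in stem cells (-2.63).

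Against stem cells the effect was lower for Fst (-2.99), Foxn4 (-2.58), Ccdc187 (-2.56), Tmem132d (-2.54), Ltb4r2 (-2.51) and Hmcn2 (-2.47). Of the listed genes, Ddit4 (-1.61), Sfmbt2 (-1.60), Atf3 (-1.47), Nanog (-1.23) and Tdh (-1.18) were lower. Tmem132d was close to the floor at day 2, with 5.03, 12.3 and 15.8 with Dox and 9.71, 8.12 and 9.28 with IAA.

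Against day 3 the effect was higher for Gpm6a (2.04), Vav3 (1.82), Slit2 (1.75), Abat (1.56), Immp2l (1.55) and Slc4a4 (1.48), and among the listed genes for Atf5 (1.34), Tcf15 (1.29), Bmf (1.04) and Asns (0.66). It was lower for Myl4 (-2.54), Elobl (-2.45), Foxn4 (-2.29), Crtac1 (-2.16), Vwa3b (-2.05) and Ttn (-2.03), and for Axin2 (-1.61) and Tdh (-1.57). Ttn gave a log2 fold change of -3.15 at day 2 and -1.12 at day 3. Myl4 was close to the floor at day 3, with a Dox mean of 8.21, and its day 3 value of 0.91 did not pass (adjusted p = 0.148).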

How the results depend on the processing

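The number of genes called was 6680 with edgeR, 4835 with DESeq2, 6644 with TMM scaling, 7364 with quality weights per library and 5943 in the joint fit of 24 libraries, against 6638. Leaving out each library in turn gave 5090 to 7248. DESeq2 called 2308 genes down, 120 at least 2-fold up and 648 at least 2-fold down. A pseudocount of 5 gave 67 and 454 changes of at least 2-fold up and down, and a filter on a mean of at least 10 gave 109 and 562. TMM scaling called 3375 up and 3269 down and edgeR 3463 and 3217, against 2954 and 3684, so the share of rises depended on the scaling. The median log2 fold change of all genes was -0.04 with the deposited size factors and -0.01 with TMM. The replicate block gave 6679 calls. Of the 422 genes chosen as named genes, 345 kept the same result under all 17 alternatives. In single runs, 392 kept it without Dox 2, 395 without IAA 3 and 394 with DESeq2. No named gene changed direction while called under any alternative run. This was not checked for Egln1, Egln3, Aldoc, Car9, Adm, Eno2, Rrm2b, Ddb2, Xpc and Pml. Small changes of weakly expressed genes are limited by depth.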
